A study of Homo sapiens with 6 samples.

Results

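The proteasome genes are those whose symbol matches PSMA, PSMB, PSMC, PSMD, PSME or PSMF followed by a number, a rule that uses no measured value. It found 44 genes among the 23228 listed. They comprise 15 genes of the 20S core without the inducible catalytic subunits, 20 genes of the 19S particle including its assembly chaperones, the 3 immunoproteasome subunits PSMB8, PSMB9 and PSMB10, the thymus subunit PSMB11, the 4 activators PSME1 to PSME4 and the inhibitor PSMF1. The cells sequenced were MDA-MB-231, a human line derived from a triple negative breast cancer (TNBC), with 3 replicates of control cells stably expressing a non-targeted shRNA and 3 replicates of PELP1-KD cells stably expressing a PELP1 shRNA, both selected with puromycin and grown in the same medium. A single PELP1 shRNA was delivered by lentivirus, and the labels do not say that replicates came from separate cultures, so that p-values measure the spread between these samples, which may be technical. The comparison asks how loss of PELP1, a coregulator of transcription factors, changed the expression of these genes.

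The proteasome is the main protease of the cytosol and nucleus. Its barrel, the 20S core, is built of outer rings of alpha subunits (PSMA) and inner rings of beta subunits (PSMB), and 3 of the beta subunits, PSMB5, PSMB6 and PSMB7, carry the constitutive active sites. The 19S particle caps the barrel, recognizes ubiquitin chains and unfolds the substrate with a ring of ATPases (PSMC) beneath a lid of non-ATPase subunits (PSMD). In leukocytes and in cells exposed to interferon, PSMB8, PSMB9 and PSMB10 are built into new particles in place of PSMB5, PSMB6 and PSMB7, and the resulting immunoproteasome is known for producing peptides for MHC class I presentation.

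Between 17304864 and 23132102 reads were counted on genes per replicate, and proteasome genes took between 0.964% and 0.981% of them. Expression is given in CPM, a gene's reads relative to the size of its library after scaling by TMM. Detection was set at 3 reads, which is worth 0.13 to 0.173 CPM depending on the library, before scaling by TMM. This floor covers counting error only. PELP1 had 57.2, 56.1 and 60.2 CPM in control replicates 1, 2 and 3 and 28.6, 29.9 and 30.3 CPM in PELP1-KD replicates 1, 2 and 3, a log2 fold change (log2FC) of -0.97 ± 0.055 (standard error, SE, adjusted p = 1.48e-11), so that the target was lower in every library labelled as knockdown. Of the genes that mark MDA-MB-231, VIM, CD44, AXL, EGFR, MSN and FOSL1 summed to between 5628 and 5761 CPM in the controls and between 4742 and 4833 CPM in PELP1-KD cells. Of these 6 markers 5 were called lower, where 24.2% of all tested genes were. The part of this shift of the markers in the results was not tested. ESR1 and PGR were below that floor in every replicate and CDH1 in all but control replicate 3, where it was at 0.225 CPM, while ERBB2 was expressed at 113 CPM ± 3.42 (SD, n = 3) in the controls. GATA3 was at 6.98 CPM ± 0.487 and 8.08 CPM ± 0.0278 (SD, n = 3) in control and PELP1-KD cells (adjusted p = 0.107). FOXA1 had 0.65, 1.14 and 1.13 CPM in the controls and 0.359, 0 and 0.212 CPM in PELP1-KD cells and was called lower (adjusted p = 5.10e-04). Of the genes that mark leukocytes, PTPRC had no read in any replicate and CD3E reached at most 0.085 CPM. CD14 was above the floor in every replicate, at 0.451 to 0.532 CPM in the controls and 0.462 to 0.75 CPM in PELP1-KD cells (log2FC 0.31, adjusted p = 0.491). LYZ had 1 read in each control replicate and 2, 2 and 4 reads in PELP1-KD replicates 1, 2 and 3.

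Of the 44 proteasome genes, 42 had enough reads to be tested. The remaining members were the testis alpha subunit PSMA8, with 0 reads in all replicates, and PSMB11, with 1 read in PELP1-KD replicate 2. In PELP1-KD cells, 15 members were downregulated and 6 were upregulated at an adjusted p-value below 0.05, and 21 did not pass. This is 35.7% lower and 14.3% higher, against 24.2% of all 12796 tested genes lower and 22.7% higher. Of the downregulated genes 14 were of the 20S core and the 19S particle and the other was the activator PSME3. The largest fall was a log2FC of -0.34 in the 19S gene PSMC6. The upregulated genes were immunoproteasome subunits, activators and the catalytic subunit PSMB5, with the largest log2FC of 1.18 in PSMB9. The median log2FC of the tested members was -0.069, against 0.0014 over all genes that were tested. In 22 members every PELP1-KD replicate lay below every control replicate, and in 6 every one lay above, where 28.0% and 27.0% of all tested genes did so. Fewer cells of a kind and less RNA per cell cannot be told apart in these bulk samples.

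**Figure D1:**
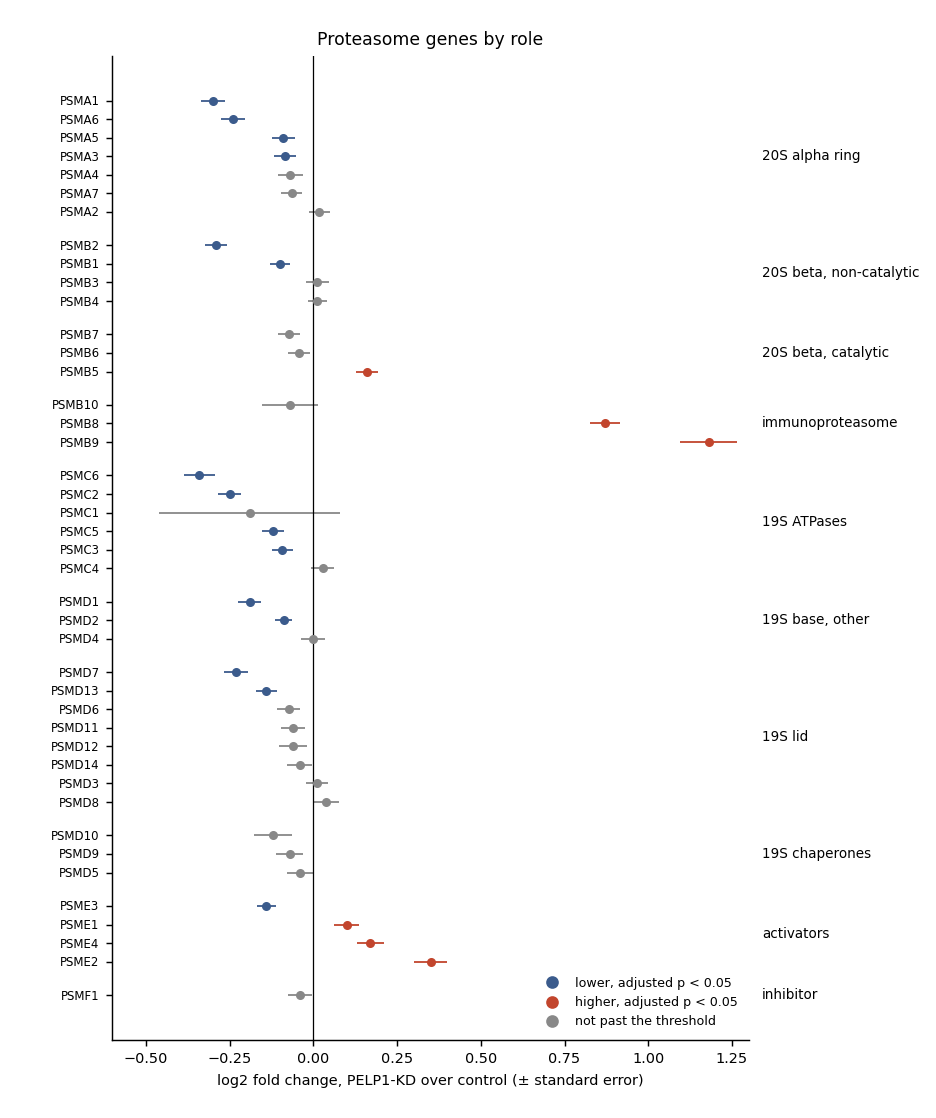
Log2 fold change (x axis, PELP1-KD over control) of the 42 tested proteasome genes, grouped by role, with bars for the standard error. PSMB8 and PSMB9 stand apart at 0.87 and 1.18, while the tested 20S and 19S genes lie between -0.34 and 0.16.

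The immunoproteasome subunits PSMB8 and PSMB9 had the largest changes of the tested members. PSMB8, the inducible counterpart of the chymotrypsin-like subunit PSMB5, had 65.4, 63.1 and 60.9 CPM in control replicates 1, 2 and 3 and 112, 118 and 117 CPM in PELP1-KD replicates 1, 2 and 3. The PELP1-KD replicates were all far above the controls, and the mean rose 1.83-fold, a log2FC of 0.87 ± 0.045 (SE, adjusted p = 2.33e-12). PSMB9, the inducible counterpart of the caspase-like subunit PSMB6, had 12.1, 14.3 and 16.6 CPM in the controls and 33.7, 33.3 and 31.0 CPM in PELP1-KD cells. It rose 2.27-fold, a log2FC of 1.18 ± 0.085 (SE, adjusted p = 4.92e-10), again without overlap between the groups. PSMB10, the inducible counterpart of the trypsin-like subunit PSMB7, had 16.3, 18.0 and 19.8 CPM in the controls and 18.1, 17.4 and 16.1 CPM in PELP1-KD cells. These ranges overlapped, and its log2FC of -0.07 had a standard error of 0.083 (adjusted p = 0.511). The test thus did not detect a change of PSMB10, with a precision nearly equal to that of PSMB9.

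PSMB8 and PSMB9 are neighbours in the MHC class II region of chromosome 6 on opposite strands, with overlapping spans, at chr6:32840717-32844703 on the minus strand and chr6:32844136-32859585 on the plus strand in the GENCODE annotation of GRCh38. Their annotated exons share 139 bases on opposite strands, and those of PSMB8 also share 618 bases with the antisense gene PSMB8-AS1. PSMB9 shares 174 exonic bases with PSMB8-AS1 on its own strand, which counting by strand cannot resolve. The library kit marks strand. The use of strand in the counting is not given in the sources used here, so reads from these overlaps cannot be assigned with certainty. PSMB10 lies on another chromosome, at chr16:67934502-67937087 on the minus strand, and shares 644 exonic bases with AC040162.1 on the same strand.

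The constitutive catalytic subunits moved little. PSMB5, the chymotrypsin-like subunit, had 254, 264 and 261 CPM in the controls and 297, 291 and 285 CPM in PELP1-KD cells. It was higher in every PELP1-KD replicate, by 12.1% of its mean, with a log2FC of 0.16 ± 0.032 (SE, adjusted p = 2.70e-04), and it was the only tested gene of the 20S core or 19S particle called higher. PSMB6 had 242, 243 and 240 CPM in the controls and 240, 238 and 227 CPM in PELP1-KD cells, a log2FC of -0.042 (adjusted p = 0.311). PSMB7 had 301, 316 and 314 CPM in the controls and 297, 299 and 291 CPM in PELP1-KD cells. The PELP1-KD replicates of PSMB7 were all below the controls, yet its log2FC of -0.072 missed the threshold (adjusted p = 0.0666). It passed with control replicate 1 left out, at -0.094 (adjusted p = 0.00827).

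**Figure D2:**
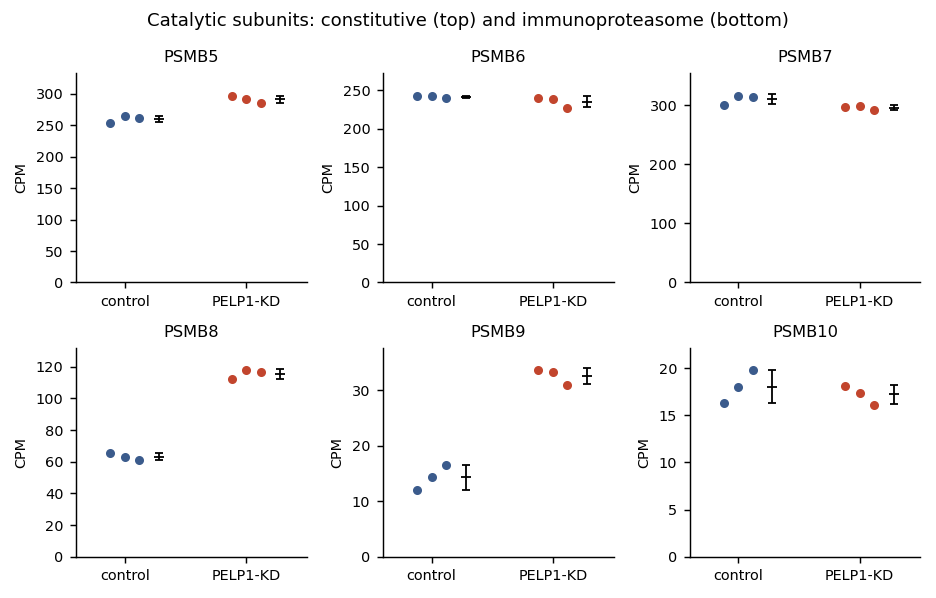
CPM (y axis, from 0) of the constitutive catalytic subunits PSMB5, PSMB6 and PSMB7 and of their inducible counterparts PSMB8, PSMB9 and PSMB10, with a point per replicate and the mean ± SD of 3 replicates beside them. The groups separate widely in PSMB8 and PSMB9, by 12.1% of the mean in PSMB5, and overlap in PSMB10.

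A ratio of reads within a replicate does not depend on how libraries are scaled. For each 100 reads of PSMB5 there were 25.7, 23.9 and 23.4 reads of PSMB8 in the controls and 37.7, 40.4 and 41.0 in PELP1-KD cells. For each 100 reads of PSMB6 there were 5.0, 5.90 and 6.92 reads of PSMB9 in the controls and 14.0, 14.0 and 13.6 in PELP1-KD cells. Both ratios were higher in every PELP1-KD replicate, by 63.1% and 134% of the control mean. Reads of PSMB10 per 100 reads of PSMB7 were 5.80 ± 0.461 (SD, n = 3) in the controls and 5.83 ± 0.274 (SD, n = 3) in PELP1-KD cells. Divided by exon length, the level of PSMB8 was 14.3% of that of PSMB5 in the controls and 23.4% in PELP1-KD cells, and by the length of the longest coding transcript it was 23.3% and 38.0%. The constitutive subunit thus stayed the more abundant transcript of this pair per length under both choices.

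**Figure D3:**
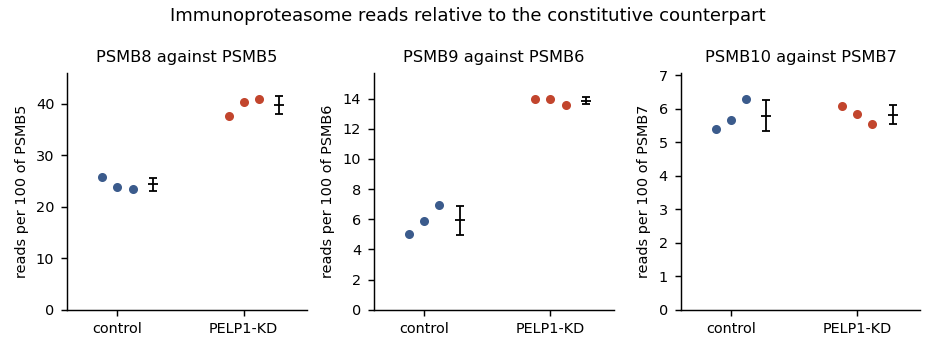
Reads of each immunoproteasome subunit per 100 reads of its constitutive counterpart (y axes, from 0), with a point per replicate and the mean ± SD of 3 replicates. PSMB8 against PSMB5 moved from a mean of 24.3 to 39.7 and PSMB9 against PSMB6 from 5.94 to 13.9, while PSMB10 against PSMB7 was at 5.80 and 5.83.

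Of the 4 activators, 3 rose and 1 fell, where 22.7% of all tested genes were called higher and 24.2% lower. PSME1 and PSME2 encode PA28 alpha and beta, which form an interferon-inducible ring that opens the 20S core. They are neighbours on chromosome 14, at chr14:24136158-24138967 on the plus strand and chr14:24143362-24147570 on the minus strand. PSME2 had 49.5, 51.1 and 51.1 CPM in the controls and 64.1, 64.7 and 65.3 CPM in PELP1-KD cells. It rose by 27.9% of its mean with groups far apart, a log2FC of 0.35 ± 0.048 (SE, adjusted p = 3.71e-06). Pseudogene copies hold 22.0% of the 50-base windows of its coding sequence and 10.8% of those of its longest coding transcript. Reads that align to several places were not counted, so the level of PSME2 is uncertain. PSME1 had 151, 156 and 160 CPM in the controls and 166, 170 and 164 CPM in PELP1-KD cells, a log2FC of 0.10 ± 0.037 (SE, adjusted p = 0.0312). This call was narrow. It was lost, at adjusted p-values between 0.0554 and 0.0904, when any single replicate other than control replicate 3 was left out.

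PSME3 encodes PA28 gamma, the nuclear member of this family. It had 445, 433 and 440 CPM in the controls and 401, 399 and 397 CPM in PELP1-KD cells, a log2FC of -0.14 ± 0.028 (SE, adjusted p = 4.22e-04), and was thus the sole activator that fell. For each 100 reads of PSME3 there were 11.5 ± 0.357 (SD, n = 3) reads of PSME2 in the controls and 16.2 ± 0.231 (SD, n = 3) in PELP1-KD cells. PSME4, which encodes the large activator PA200, had 147, 139 and 130 CPM in the controls and 157, 155 and 154 CPM in PELP1-KD cells, a log2FC of 0.17 ± 0.041 (SE, adjusted p = 0.00232). PSMF1, the inhibitor PI31, had 148, 148 and 149 CPM in the controls and 143, 146 and 143 CPM in PELP1-KD cells, a log2FC of -0.041 (adjusted p = 0.364).

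**Figure D4:**
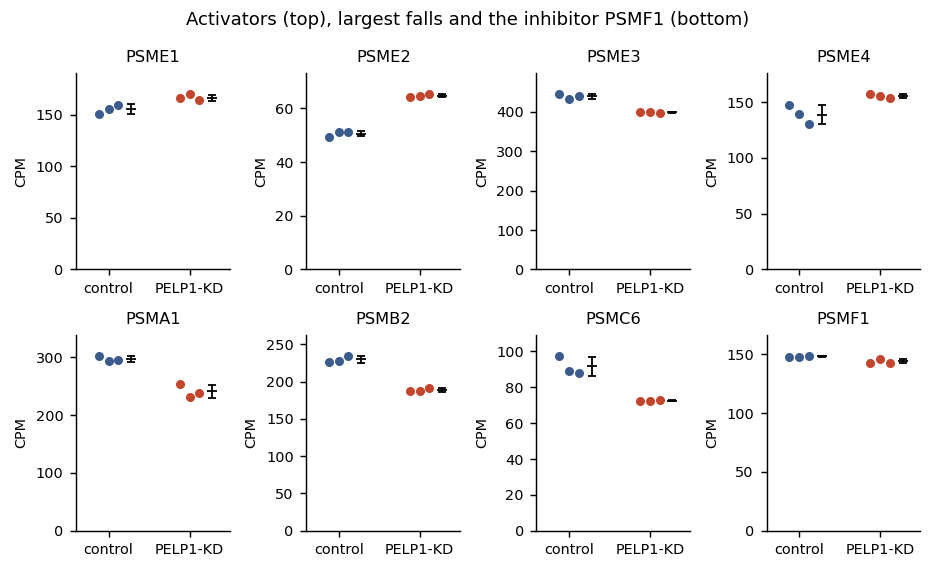
CPM (y axis, from 0) of the activators PSME1 to PSME4, of the members with the largest falls, PSMA1, PSMB2 and PSMC6, and of the inhibitor PSMF1, with a point per replicate and the mean ± SD of 3 replicates. PSME2 and PSME3 moved in opposite directions, with log2FC of 0.35 and -0.14.

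Windows of promoter sequence, from 250 bases before to 50 bases after the start of each gene, were taken from RefSeq on GRCh38.p14 and matched 39 of the 44 members by symbol. PSMA7, PSMB1, PSMB6, PSMB7 and PSMD4 had no window and were not searched. The windows found were searched on both strands for the core of the interferon-stimulated response element (ISRE), written GAAANNGAAA. It was found in 6 of the 39 members (15.4%), against 4.38% of all 27305 genes in the set. These were PSMB8, PSMB10, PSME1, PSME2, PSMA4 and PSMB4. The matches of the first 4 are shown because they are the interferon-inducible members and hold the same letters, GAAAGCGAAA, on either strand. The capitals mark the ISRE core, and each line reads along its gene's own strand.
PSMB8: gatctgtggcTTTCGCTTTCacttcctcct
PSMB10: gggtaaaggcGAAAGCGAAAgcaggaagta
PSME1: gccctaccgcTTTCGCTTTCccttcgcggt
PSME2: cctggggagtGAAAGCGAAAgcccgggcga

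These stretches lie at chr6:32844032-32844061, chr16:67936852-67936881, chr14:24136189-24136218 and chr14:24146619-24146648. The first base of the core is at -4, -21, 6 and -28 from the RefSeq start of PSMB8, PSMB10, PSME1 and PSME2. These RefSeq starts lie inside the GENCODE spans given above and are not the ends of those spans. The exact letters were found in 0.125% of all genes. PSMB8, PSME1 and PSME2 were called higher in PELP1-KD cells and PSMB10 was not, although all carry them. No match was found in the window of PSMB9, which surrounds a RefSeq start inside the longer GENCODE span. This window begins at chr6:32853942. The same letters lie upstream of it, at chr6:32853813-32853842, in the window of the neighbouring gene TAP1 on the minus strand. The absence thus holds for the searched window only. The antioxidant response element, TGACNNNGC, through which NRF1 (the product of NFE2L1) is known to activate proteasome genes, was found in 13 of the 39 members (33.3%) and in 16.1% of all genes. The CCAAT box was found in 19 members (48.7%) and 39.7% of all genes. A match describes the letters of a window and does not show that a factor binds there.

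In the 20S core, 6 of the 14 tested genes were downregulated (42.9%), 1 was upregulated (7.14%) and 7 did not pass. Of all tested genes 24.2% were lower and 22.7% higher. With library totals alone in place of TMM, 21.4% of the core genes were lower, close to the 18.9% of all tested genes. Of the 7 tested alpha subunits, 4 fell and none rose. PSMA1, at chr11:14504874-14643635 on the minus strand, had 303, 294 and 295 CPM in the controls and 254, 232 and 239 CPM in PELP1-KD cells. It fell by 18.7% of its mean, a log2FC of -0.30 ± 0.035 (SE, adjusted p = 6.46e-07). PSMA6 followed at a log2FC of -0.24 (adjusted p = 9.17e-06). Copies elsewhere, though, hold 35.0% of its coding windows and 24.6% of the windows of its longest coding transcript. PSMA5 and PSMA3 passed narrowly, at -0.089 and -0.084. PSMA4, PSMA7 and PSMA2 had log2FC of -0.069, -0.064 and 0.018 and did not pass. PSMA7 passed with control replicate 1 left out, at -0.10 (adjusted p = 0.00114).

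Of the 4 beta subunits without an active site, PSMB2 and PSMB1 fell, where 24.2% of all tested genes were called lower. PSMB2, at chr1:35599544-35641844 on the minus strand, had 227, 228 and 235 CPM in the controls and 187, 188 and 192 CPM in PELP1-KD cells. It fell by 18.0% of its mean in replicates that lay close together, a log2FC of -0.29 ± 0.033 (SE, adjusted p = 5.66e-07). PSMB1 had a log2FC of -0.10 (adjusted p = 0.00951). PSMB3 and PSMB4 both had a log2FC of 0.012 with standard errors of 0.035 and 0.028. Among the constitutive beta subunits, which share a ring, the log2FC thus ran from -0.29 for PSMB2 to 0.16 for PSMB5.

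In the 19S particle, 8 of the 20 genes were downregulated (40%), none was upregulated and 12 did not pass. Of all tested genes 24.2% were lower and 22.7% higher. With library totals alone in place of TMM, 25% of the 19S genes were lower, beside 18.9% of all tested genes. The ATPases, which form the unfolding ring, held 4 of the 8. PSMC6 had 97.7, 89.2 and 88.1 CPM in the controls and 72.1, 72.4 and 72.8 CPM in PELP1-KD cells. It fell by 21.0% of its mean, a log2FC of -0.34 ± 0.047 (SE, adjusted p = 5.98e-06), and this was the largest fall among the members that passed. It lies at chr14:52707172-52728587 on the plus strand. Pseudogene copies hold 45.6% of its coding windows and 24.7% of the windows of its longest coding transcript. PSMC2, with copies of 2.00% of its coding windows, had a log2FC of -0.25 (adjusted p = 4.24e-06). PSMC5 and PSMC3 fell by less, at -0.12 and -0.092, and PSMC4 had a log2FC of 0.028 (adjusted p = 0.514). PSMC1 was counted at only 23 to 40 reads per replicate, which cannot be read as its level. Of its coding windows 98.7% also occur in other genes, foremost the pseudogene PSMC1P1, as do 29% of the windows of its longest coding transcript. Its exons also share 4671 bases with NRDE2 on the opposite strand. The part of either in the low count was not tested. The log2FC of PSMC1, at -0.19, had a standard error of 0.27.

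In the rest of the base, PSMD1 and PSMD2, the large scaffold subunits, fell, PSMD1 at -0.19 (adjusted p = 1.29e-04) and PSMD2 at -0.088 (adjusted p = 0.00597) in log2FC. A pseudogene copy holds 11.1% of the coding windows of PSMD2. The ubiquitin receptor PSMD4, 25.0% of whose coding windows occur in other genes, was at 144 CPM in both groups. Of the 8 lid genes, PSMD7 and PSMD13 fell, at -0.23 (adjusted p = 2.78e-05) and -0.14 (adjusted p = 0.00156). This is 25% of the lid, close to the 24.2% of all tested genes called lower. PSMD14, the deubiquitinase of the lid, had a log2FC of -0.041 (adjusted p = 0.384), and the highest of the lid was PSMD8 at 0.039 (adjusted p = 0.403). The lid subunits PSMD6, PSMD11, PSMD12 and PSMD3 had log2FC between -0.074 and 0.011 and did not pass. The chaperones PSMD5, PSMD9 and PSMD10, which assist assembly of the base, had log2FC between -0.12 and -0.039 and did not pass. PSMD10 passed with PELP1-KD replicate 1 left out, at -0.16 (adjusted p = 0.0417).

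The falls were small and depended in part on the scaling of the libraries. With library totals alone in place of TMM, the median log2FC of all tested genes moved to 0.051 and that of the members to -0.02, and 9 members in place of 15 were called lower, while 6 were again called higher. These are 21.4% and 14.3% of the tested members, against 18.9% of all tested genes lower and 29.8% higher under that scaling, so that the share of members called lower was then close to that of all genes. The members that remained lower were PSMA1, PSMA6, PSMB2, PSMC2, PSMC6, PSMD1, PSMD7, PSMD13 and PSME3. These 9 and the 5 genes PSMB5, PSMB8, PSMB9, PSME2 and PSME4 kept their call under all 13 alternatives. Over its genes, the 20S core summed to 4138 CPM ± 42.3 (SD, n = 3) in the controls, against 3939 CPM ± 22.7 (SD, n = 3) after knockdown. The 19S particle had 4737 CPM ± 39.5 (SD, n = 3) and 4467 CPM ± 16.8 (SD, n = 3). Their ratio within replicates was 1.14 ± 0.0159 and 1.13 ± 0.00619 (SD, n = 3), so that no difference between core and cap beyond the replicate spread was seen in these sums. As a share of all reads on genes, without TMM, the 20S core took 0.407% ± 0.00593 and 0.401% ± 0.00198 (SD, n = 3), with overlapping replicates. On the same scale the 19S particle took 0.465% ± 0.00323 and 0.454% ± 0.00165 (SD, n = 3), without overlap, and all members together 0.973% ± 0.00746 and 0.966% ± 0.00237 (SD, n = 3), with overlap. The sum over all members thus fell by 4.05% in CPM and differed by -0.708% as a share of reads.

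Levels were compared between genes as RPKM, the CPM per kilobase of annotated exons. In the controls the most abundant member was PSMA7 at 329 RPKM ± 14.6 (SD, n = 3), followed by PSMB4, PSMB1 and PSMD2 at 200, 190 and 183 RPKM. PSMB4 and PSMB1 had SDs of 3.71 and 4.62 RPKM. By the longest coding transcript their order was the reverse, so that it depends on the length used. PSMB8 was at 21.1 RPKM ± 0.744, PSMB10 at 9.73 RPKM ± 0.946 and PSMB9 at 4.67 RPKM ± 0.731 (SD, n = 3). In PELP1-KD cells PSMB9 reached 10.6 RPKM ± 0.473 and PSMB10 was at 9.30 RPKM ± 0.539 (SD, n = 3), while by transcript length PSMB9 was above PSMB10 in both groups.

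**Figure D5:**
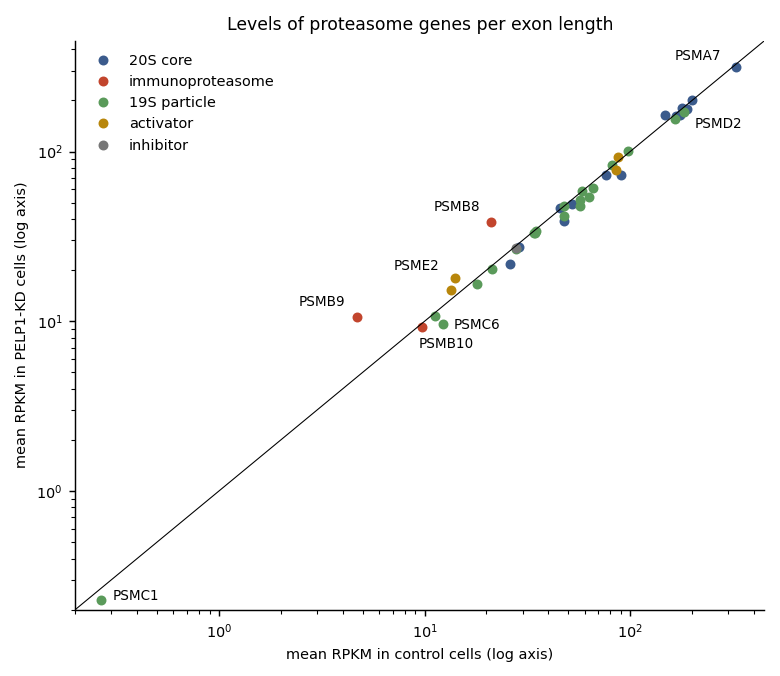
Mean RPKM of the 42 tested proteasome genes in control cells (x axis) and PELP1-KD cells (y axis), both on log axes, with the line of equality. PSMB8 and PSMB9 lie farthest above the line, and PSMC1 is at 0.268 and 0.229 RPKM.

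Other genes of the pathway were taken from lists of 40 genes, all of which were tested, with 13 lower (32.5%) and 8 higher (20%) under TMM, beside 24.2% and 22.7% of all tested genes. With library totals alone 9 were lower (22.5%) and 12 higher (30.0%), beside 18.9% and 29.8% of all tested genes. The proteasome-bound proteins held the largest fall. UCHL5, a deubiquitinase that docks on the 19S base, had 135, 126 and 120 CPM in the controls and 71.7, 68.7 and 70.1 CPM in PELP1-KD cells. It fell by 44.7% of its mean, a log2FC of -0.86 ± 0.046 (SE, adjusted p = 5.78e-12), which is more than any of the 42 tested members. USP14, the other deubiquitinase bound to the base, had a log2FC of -0.32 (adjusted p = 6.34e-07), and the thioredoxin-like TXNL1 had -0.35 (adjusted p = 1.53e-05). AKIRIN2, which imports proteasomes into the nucleus, rose at 0.30 (adjusted p = 2.09e-04). In all, 5 of these 7 genes fell and 1 rose. ADRM1, the ubiquitin receptor in which UCHL5 is anchored, fell at -0.15 (adjusted p = 0.00264).

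Of the 6 assembly factors, 2 rose and none fell. PSMG4, a chaperone of the alpha ring, rose at a log2FC of 0.49 (adjusted p = 6.68e-06) and its partner PSMG3 at 0.18 (adjusted p = 0.0267). POMP, which matures the 20S core, missed the threshold at -0.092 (adjusted p = 0.0502). NFE2L1, which encodes NRF1, had 464, 461 and 462 CPM in the controls and 437, 459 and 441 CPM in PELP1-KD cells, a log2FC of -0.052 (adjusted p = 0.149). Of its activating enzymes, NGLY1 fell at -0.19 (adjusted p = 0.00717) and DDI2 did not pass. Among shuttle receptors 2 of 5 fell, in the VCP complex 1 of 4 fell, and among genes for ubiquitin and its activating enzymes 1 of 6 fell and 1 rose. Such counts in short lists stand beside 24.2% of all tested genes lower and 22.7% higher. With library totals alone, 2 shuttle receptors were lower and 2 higher, and 0 of the ubiquitin genes were lower and 2 higher.

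Genes of antigen presentation were among those that rose. TAP1, a peptide transporter subunit, rose from 82.5 CPM ± 2.62 to 122 CPM ± 4.93 (SD, n = 3), a log2FC of 0.56 (adjusted p = 1.57e-09). TAP2, its partner, rose at 0.36 (adjusted p = 1.55e-08), TAPBP at 0.20 (adjusted p = 1.12e-04) and the transcription factor IRF1 at 0.19 (adjusted p = 0.0212). B2M, the light chain of MHC class I, fell at -0.10 (adjusted p = 0.0079), a call that was lost with library totals alone. NLRC5, an activator of MHC class I genes, had a log2FC of 0.12 and did not pass (adjusted p = 0.141). Its PELP1-KD replicates all lay above the controls, and it was called higher with library totals alone. PSMB8 and PSMB9 thus rose beside TAP1 and TAP2, while B2M did not rise with them.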

How the data were processed

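RNA-seq libraries of mRNA, made with a stranded kit, from 3 control and 3 PELP1-KD replicates of MDA-MB-231 cells were sequenced as single reads of 50 bases. The authors deposited raw counts of reads per gene symbol. The submitters' processing notes name bcl2fastq, TopHat2, SAMtools, HTSeq and hg19; versions and annotation are not given in the sources used here. Totals that name no gene were left out. Reads aligned more than once, 32.5% to 32.9% of each file, were counted on no gene, reads without a feature made up 7.63% to 8.20% and ambiguous reads 0.657% to 0.688%.

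In R 4.3.3, genes passing filterByExpr of edgeR 4.0.16 (minimum count 10) were scaled by TMM and tested across all 12796 genes by its quasi-likelihood test, calling genes at 0.05 after Benjamini-Hochberg adjustment. The standard error is the log2FC over the square root of F. The script was tested on simulated data. DESeq2 1.42.0 and voom in limma 3.58.1 were alternatives, with other scalings and filters, a block and replicates left out. Exon lengths, coordinates and copies of 50-base windows came from GENCODE 29 on GRCh38. All members are accounted for. Those given by replicate are the 3 largest changes in each direction, the catalytic pairs, PSME1 to PSME4 and PSMF1; UCHL5 by replicate, pathway genes with a log2FC within 0.25 of 0 (other than NFE2L1, POMP and ADRM1) and the motif letters were chosen after values were seen. Members and lists were chosen with earlier results of these data known. Some list genes, and the counts of their lists, are not reported here. Replicates of a group differed by more than counting noise, their chi-square over its degrees of freedom being 1.47 to 4.11. The pairs with control replicate 1 gave 3.87 and 4.11, and control replicates 2 and 3 gave 1.47. Pairs with PELP1-KD replicate 2 gave 2.75 and 2.71, and PELP1-KD replicates 1 and 3 gave 1.51.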

Additional observations from a re-analysis of the deposited data

How the results depend on the processing

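With library totals alone in place of TMM, 9 members, 3 genes of the 20S core and 5 of the 19S particle were called lower, the median log2FC of the members was -0.02, and the log2FC of PSMB6 and PSMF1, which did not pass under either scaling, turned to 0.0074 and 0.0087. This scaling raises every log2FC by a similar amount. Calls of PSMA3, PSMA5, PSMB1, PSMC3, PSMC5 and PSMD2 were lost under it. PSMA3 was also lost without control replicate 2 or any PELP1-KD replicate (adjusted p-values between 0.0646 and 0.117), PSMA5 without control replicates 1 or 3 or PELP1-KD replicates 1 or 3 (between 0.0602 and 0.104), PSMB1 without control replicate 2 (0.0765) and PSMC3 without control replicate 2 or PELP1-KD replicate 3 (0.0577 and 0.149). DESeq2 lost PSMA3 and PSMA5 (0.0689 and 0.0582), and testing without a filter on low counts lost PSMA3 (0.0538). Leaving out 1 replicate at a time, 12 to 16 members were lower and 5 or 6 higher. The shares of all tested genes called in these fits, and in the block fit below, are not given here. The counts thus show how the calls of members moved and do not set the members apart from other genes. Replicate numbers do not mark a shared culture in the labels, and deviations of same-numbered replicates correlated at 0.0388, 0.0653 and -0.0784. A fit with replicate as block called 16 members lower and 6 higher, with PELP1 at -0.97. In it PSMB7 passed at -0.072 (adjusted p-value 0.0484), and the block changed no other member's call. RPKM by transcript length was above that by exon length in all 14 members given by replicate. This was fixed in advance, since the transcript is part of the annotated exons and is thus the shorter length.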

Other observations

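The letters GAAAGCGAAA shared by PSMB8, PSMB10, PSME1 and PSME2 were also found in the promoter windows of 3 of the 32 pathway genes with a window, TAP1, TAP2 and PSMG4, each of which was called higher in PELP1-KD cells. In the whole RefSeq set, 34 genes hold these letters and 24 of them were tested, with 12 called higher (50.0%) and 3 lower. Without the proteasome and pathway genes, 6 of 17 were called higher (35.3%) and 3 lower (17.6%), where 23.2% of the 8933 tested genes with a window were higher and 26.0% lower. The 6 were ALOXE3, DDO, GRWD1, IL12A, MYD88 and TNFRSF1B. Of 354 tested genes with any ISRE core, 29.7% were higher and 25.1% lower. These letters were chosen after the matches in the proteasome genes were seen, and their part in the changes was not tested.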
